A study of Mus musculus with 6 samples.

Results

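The p53 pathway was measured through 32 genes, Trp53 itself with its feedback regulators and the genes it is known to switch on, in haematopoietic stem and progenitor cells of mice lacking Mc5r, the melanocortin 5 receptor. The 32 were taken by gene name from a deposited table of 55487 genes, and each name matched 1 row. The RNA came from bone-marrow LSK cells, the lineage-negative cells positive for Sca-1 and Kit, and was sequenced as poly-A libraries. Wild-type littermates gave 3 libraries and Mc5r-/- mice, called Mc5r-null here, the other 3. The series describes the mice as irradiated, and neither dose, time nor age is known here. Unirradiated cells were not analysed here, and no value below measures the response to irradiation itself. Whether each library is a separate mouse is not stated, so every p-value and SD reflects only how far libraries differed, which may be technical. In bulk RNA, fewer cells of a type and less RNA per cell cannot be told apart. Counts summed to between 13983016 and 14953169 per library. CPM below is a gene's count scaled to that total, and FPKM, the authors' deposited value, is scaled by gene length as well. Of the 32 members, 31 passed the filter on low counts and were tested among 15257 genes.

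p53 is a transcription factor that is held at a low level by the ubiquitin ligase Mdm2 and the related inhibitor Mdm4. DNA damage releases it from them, and it then switches on genes of cell cycle arrest, apoptosis, repair and metabolism, and Mdm2 itself, which closes a feedback loop. In haematopoietic stem cells p53 is known for maintaining quiescence and for setting how many cells survive irradiation.

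The libraries were first checked against their labels. Mc5r had 181, 157 and 198 counts in wild type and 0, 0 and 1 in Mc5r-null (replicates 1, 2 and 3, an order kept below). Kit was at 241 ± 2.95 CPM (wild type) and 256 ± 5.21 CPM (Mc5r-null), and Ly6a, which encodes Sca-1, at 59.3 ± 10.6 and 66.6 ± 9.54 CPM (SD, n = 3 each). Of the LSK markers, Kit, Flt3, Cd34 and Slamf1 were higher, Cd48 was lower, and Ly6a did not pass. Markers of other cell types also differed with genotype, and their part in the results below was not tested. Of 15 plasma and B cell markers, 11 were higher and 2 lower, with summed levels of 11762 to 11843 CPM in wild type and 37212 to 39652 CPM in Mc5r-null. All 12 neutrophil and monocyte markers were lower (17052 to 17927 against 10972 to 11373 CPM), as were 7 of 8 mast cell and basophil markers (487 to 528 against 257 to 312 CPM). Of 11 tested erythroid markers 9 were higher and 1 lower (284 to 287 against 408 to 411 CPM), of 8 tested T and NK cell markers 4 were higher and 1 lower (300 to 303 against 253 to 256 CPM), and of 7 tested stromal and endothelial markers 4 were higher and none lower (107 to 111 against 115 to 122 CPM), with Col3a1 and Lepr at 0 in every library. Single genes carry some of these sums. The lymphoid sum is mostly Nkg7, which fell from 267 to 205 CPM while Cd3e, Cd2, Prf1 and Lck rose, and the erythroid sum is mostly Tfrc (247 and 225 CPM), beside globin genes that rose 4.58-fold to 12.0-fold. Xist had 1224, 1167 and 1281 counts in wild type and 0, 2 and 2 in Mc5r-null, while the Y-linked genes Ddx3y, Kdm5d, Uty and Eif2s3y were counted in all 6 libraries (160 to 1196 counts). Each wild-type library thus held Xist beside Y-linked RNA, as a pool of female and male cells would, so it may not be a single mouse. The Mc5r-null libraries held almost no Xist. The Y-linked genes differed far less between the genotypes than Xist did. In Mc5r-null, Ddx3y was 1.43-fold, Kdm5d 1.17-fold and Uty 1.11-fold higher, and Eif2s3y was 1.03-fold lower. Among them only Kdm5d passed (edgeR adjusted p = 0.0374). The share of female cells in the wild-type libraries was not tested. Xist thus moved with genotype, and the effects of sex and genotype cannot be told apart.

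Members of the p53 pathway differed between the genotypes in both directions and mostly by small factors. Of the 31 tested, 10 were higher and 5 lower in Mc5r-null cells, and 16 did not pass. A call here is a Benjamini-Hochberg adjusted p below 0.05, over all genes, from edgeR's quasi-likelihood test. That is 48.4% of the members, where 32.9% of all genes tested passed. In the higher direction it is 32.3% against 16.8% of all genes, and in the lower direction 16.1% against 16.1%. Genes with a mean of at least 10 CPM were called more often, 38.5% of them in either direction, and of the 24 members above that level 13 (54.2%) were called. The members' median log2 fold change was 0.15, beside -0.0047 over all genes tested. The CPM ranges of the genotypes were separate for 20 members (64.5%), where 49.8% of all genes tested had no overlap. With DESeq2 the calls were 6 higher and 3 lower (29.0% of members, beside 20.3% of all genes).

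Which members were called depended on the analysis for 6 of the 15. The other 9 were called in the reported fit and in all 14 alternative analyses, with Trp53inp1, Tnfrsf10b, Gdf15, Ddb2, Psrc1 and Sesn1 higher and Btg2, Plk2 and Rps27l lower. They come from all 5 roles into which the members were sorted. How many of all genes tested kept their call in all 14 was not counted, so these 9 have no background to be set against.

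**Figure D1:**
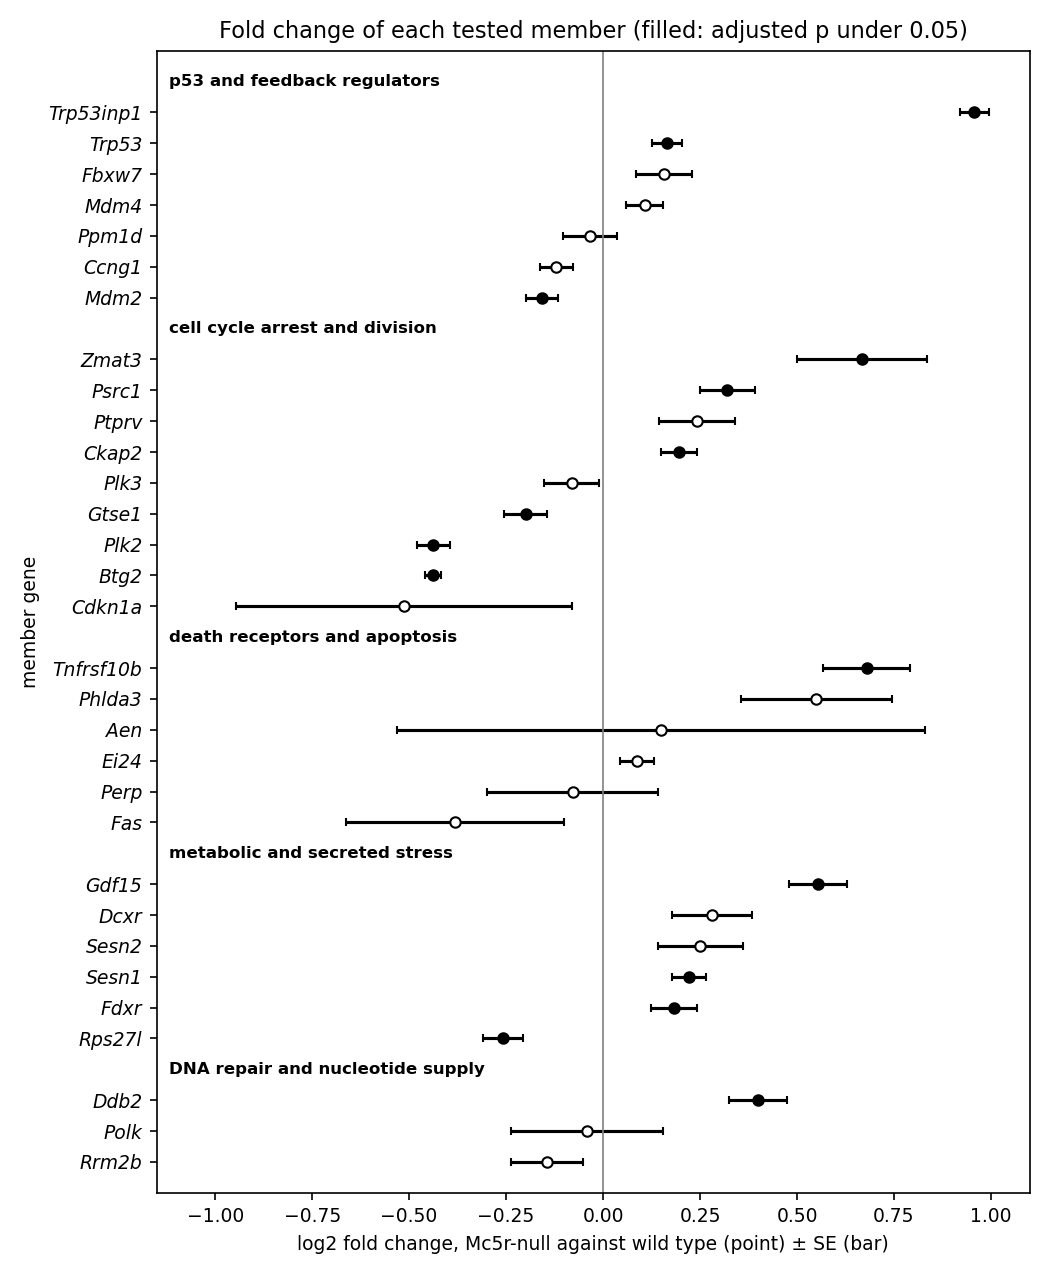
Log2 fold change of the 31 tested members, Mc5r-null against wild type (x axis), with the SE as a bar, sorted by role and then by value (y axis). Filled points passed an adjusted p under 0.05. Trp53inp1 at 0.96 lies farthest to the right, and the widest bars belong to Aen (SE 0.680) and Cdkn1a (SE 0.433).

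**Figure D2:**
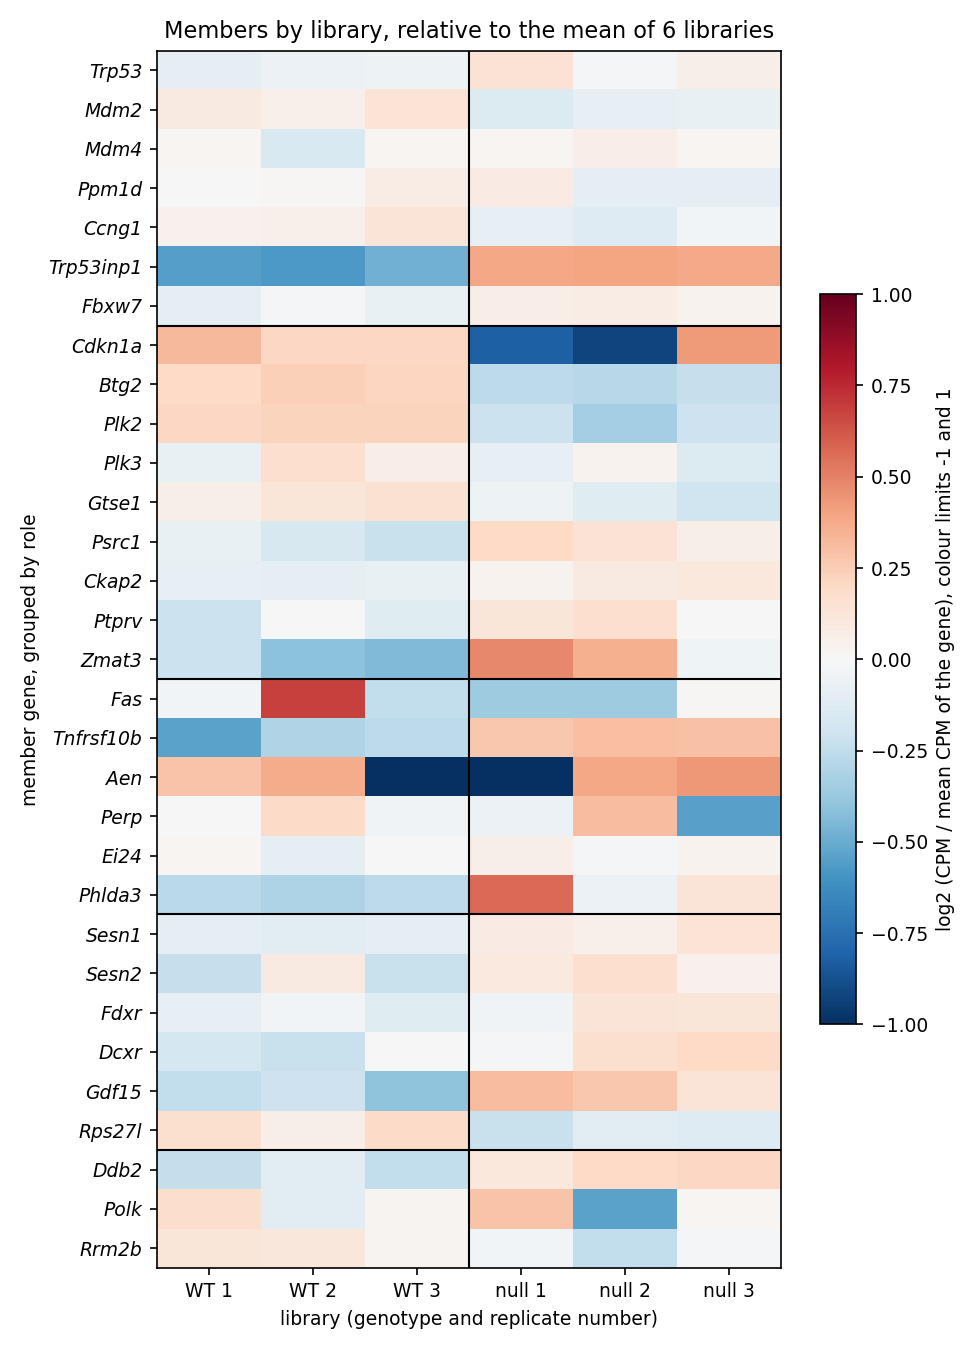
Level of each tested member in each of the 6 libraries, as the log2 ratio of its CPM to its mean over all libraries (colour, limits at -1 and 1), with members in rows by role and libraries in columns. Trp53inp1, Btg2 and Plk2 change colour at the line between the genotypes, while Cdkn1a changes within Mc5r-null and Aen within both genotypes.

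Trp53 and its main inhibitor differed in opposite directions, each by little. Trp53 (ENSMUSG00000059552, GRCm38 chromosome 11, positions 69580359 to 69591873, plus strand) had 2782, 2843 and 2853 counts in wild type and 3079, 2761 and 2891 in Mc5r-null. In CPM the groups did not overlap, at 189 ± 2.86 CPM and 207 ± 11.5 CPM (SD, n = 3 each). Trp53 rose 1.12-fold (log2 fold change 0.16 ± 0.039 SE, edgeR adjusted p = 0.0121), though not with DESeq2 (adjusted p = 0.0549). Mdm2, the ligase that marks p53 for degradation and is one of its targets (ENSMUSG00000020184, chromosome 10, positions 117688875 to 117710758, minus strand), had 1027, 997 and 1053 counts in wild type and 823, 857 and 854 in Mc5r-null. All 3 Mc5r-null libraries lay below all 3 wild-type libraries. Mdm2 fell 1.12-fold from 68.7 ± 1.94 to 60.2 ± 1.40 CPM (edgeR adjusted p = 0.0180). The call was lost with DESeq2 (adjusted p = 0.156), without wild-type replicate 3 (0.0599) and without Mc5r-null replicate 1 (0.0541). The ratio of Trp53 to Mdm2 counts, a pair chosen after their values were seen, was 2.71, 2.85 and 2.71 in wild type and 3.74, 3.22 and 3.39 in Mc5r-null. The means were 2.76 ± 0.0822 and 3.45 ± 0.266 (SD, n = 3 each). No test is given, since that choice fixed the separation of the groups.

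The largest change among the 31 tested members was in Trp53inp1, whose p53-induced product acts on p53's choice of targets and in autophagy (ENSMUSG00000028211, chromosome 4, positions 11156431 to 11174379, plus strand). It had 786, 773 and 821 counts in wild type and 1417, 1426 and 1401 in Mc5r-null. The libraries of a genotype lay within a narrow range, and the gap between the genotypes was far wider than either. Trp53inp1 rose 1.94-fold from 53.1 ± 1.73 to 101 ± 0.556 CPM (log2 fold change 0.96 ± 0.037 SE, edgeR adjusted p = 3.32e-07). The other feedback regulators did not pass. Mdm4 was at 135 ± 9.13 and 142 ± 2.52 CPM (edgeR adjusted p = 0.124). Ppm1d, whose phosphatase Wip1 switches off damage signalling, had 378, 380 and 396 counts against 374, 331 and 331, with overlapping groups (edgeR adjusted p = 0.758). Ccng1, the cyclin G1 gene, was at 76.9 ± 2.56 and 69.1 ± 2.51 CPM without overlap of the groups (edgeR adjusted p = 0.0571). Fbxw7, a substrate-binding subunit of an SCF ubiquitin ligase, had 200, 212 and 203 counts against 211, 213 and 206 (edgeR adjusted p = 0.135).

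**Figure D3:**
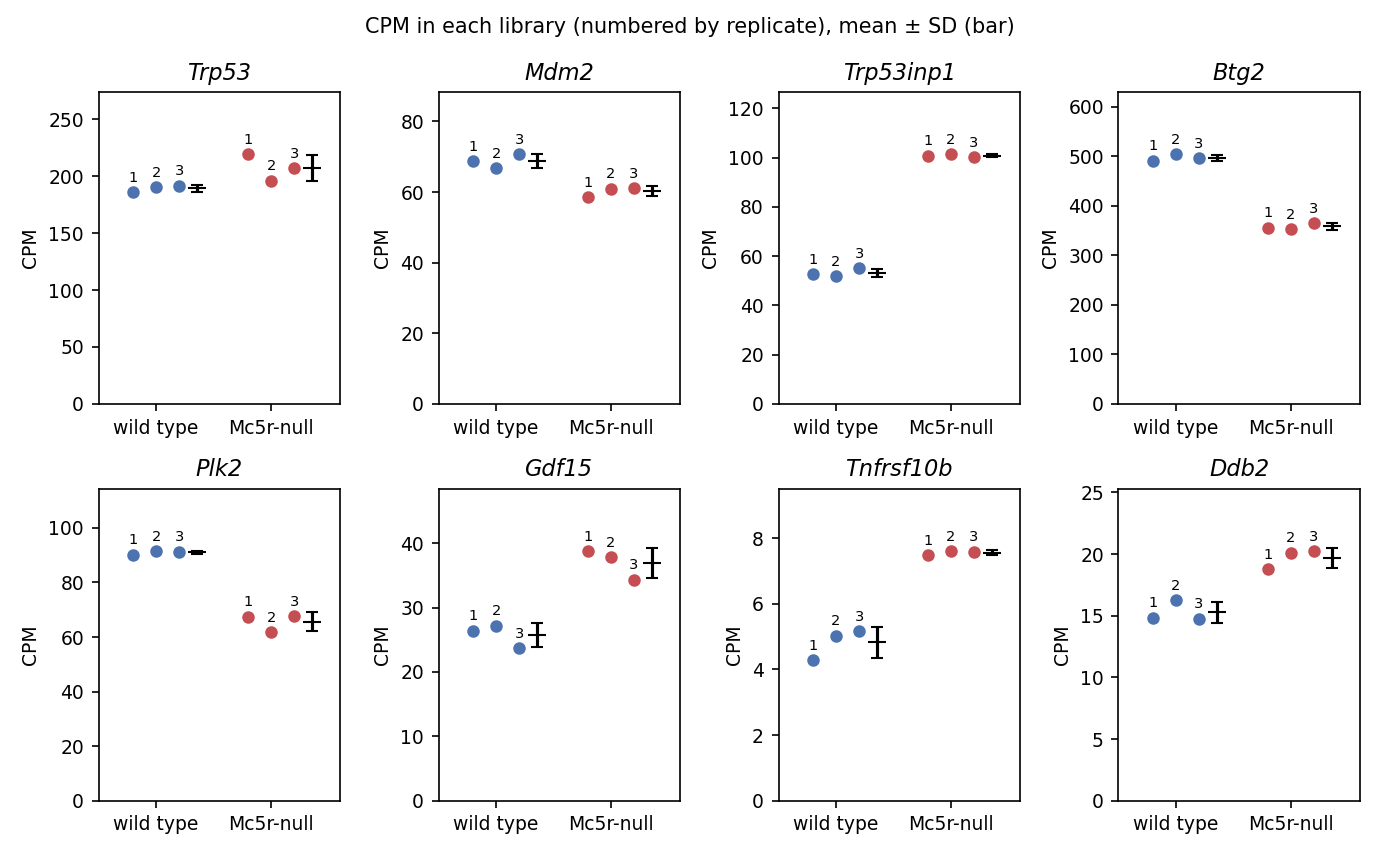
CPM of 8 members in each library (points, numbered by replicate), with the mean and SD of each genotype (bar, n = 3); each axis starts at 0. Trp53inp1, Gdf15, Tnfrsf10b and Ddb2 sit higher in Mc5r-null and Btg2, Plk2 and Mdm2 lower, while Trp53 is separated by less, with Mc5r-null replicate 2 nearest to wild type.

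Among the members of cell cycle arrest and division, 3 were higher, 3 were lower and 3 did not pass. The best known of them, Cdkn1a, which encodes the CDK inhibitor p21 (ENSMUSG00000023067, chromosome 17, positions 29090976 to 29100727, plus strand), could not be called in either direction. It had 2873, 2639 and 2630 counts in wild type and 1220, 1142 and 2879 in Mc5r-null. Mc5r-null replicates 1 and 2 were far below wild type, and replicate 3 was the highest of the 6 in CPM. The means were 182 ± 8.96 and 125 ± 70.5 CPM (SD, n = 3 each; log2 fold change -0.51 ± 0.433 SE, edgeR adjusted p = 0.441). Without Mc5r-null replicate 3 the log2 fold change was -1.08 (edgeR adjusted p = 5.69e-06), so this 1 library decides the call. The spread is described with Aen below. Cdkn1a was the only member whose promoter window, 250 bases before to 50 after a RefSeq start (GRCm38.p6), held a match to the p53 response element, that is 2 p53 decamer sites at most 13 bases apart. Such a match occurs in 24 of 32851 windows of that length (0.0731%). The bases before the start are shown because they carry this match, with both decamers and the bases between them in capitals (chr17:29090729-29090978, plus strand):
Cdkn1a: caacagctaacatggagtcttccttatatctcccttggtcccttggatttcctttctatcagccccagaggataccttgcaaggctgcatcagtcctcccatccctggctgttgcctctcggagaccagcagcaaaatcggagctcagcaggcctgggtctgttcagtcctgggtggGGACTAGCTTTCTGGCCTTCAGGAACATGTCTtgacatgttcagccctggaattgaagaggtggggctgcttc
The match ends 41 bases before the start. The next 10 bases miss the decamer pattern only at their first base. The capitals thus mark strict matches alone, and not a mapped binding site.

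A single p53 decamer site was found in 12 of the 25 members that had a promoter window and in 13 of their 36 windows, beside 8.36% of all windows. The match is a description of letters and not a binding site. The ones of Mdm2, Trp53 and Ccng1 are shown because these genes are the core loop and a classical target, with the decamer in capitals.
Mdm2 (chr10:117710920-117710959, minus strand): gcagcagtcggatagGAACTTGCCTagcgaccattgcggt
Trp53 (chr11:69580269-69580308, plus strand): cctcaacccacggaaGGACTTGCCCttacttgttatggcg
Ccng1 (chr11:40755447-40755486, minus strand): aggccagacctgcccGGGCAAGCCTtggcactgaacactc
They end 176, 65 and 175 bases before a start. Members with and without a match were found among those that rose and those that fell, Trp53 and Mdm2 with one and Gdf15 and Btg2 without.

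Btg2 and Plk2 fell, and by nearly the same factor. Btg2, an antiproliferative gene that is also an immediate early gene (ENSMUSG00000020423, chromosome 1, positions 134075170 to 134079120, minus strand), had 7336, 7517 and 7386 counts in wild type and 5002, 4969 and 5106 in Mc5r-null. It fell 1.35-fold from 497 ± 6.51 to 358 ± 6.35 CPM (log2 fold change -0.44 ± 0.020 SE, edgeR adjusted p = 1.04e-06). Plk2, a polo-like kinase of the G1 and S phases (ENSMUSG00000021701, chromosome 13, positions 110395046 to 110400844, plus strand), had 1349, 1366 and 1361 counts against 948, 870 and 947. It fell 1.35-fold from 91.0 ± 0.695 to 65.7 ± 3.34 CPM (edgeR adjusted p = 0.000116). Every Mc5r-null library was below every wild-type library for both. Their relative Plk3, also inducible by stress, had overlapping groups, with 805, 948 and 883 counts against 752, 818 and 720 (edgeR adjusted p = 0.431).

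The promoter windows of Btg2 and Plk2 share the palindromic cAMP response element TGACGTCA. This motif was searched in addition to the p53 element, and whether it has a part in their falls was not tested. Of the 25 members with a window, 3 held it, Btg2, Plk2 and Ppm1d, each in 1 window. That is 3 of the members' 36 windows, beside 588 of 32851 windows (1.79%) in all. The stretches are shown for that match, in capitals.
Btg2 (chr1:134079264-134079371, minus strand): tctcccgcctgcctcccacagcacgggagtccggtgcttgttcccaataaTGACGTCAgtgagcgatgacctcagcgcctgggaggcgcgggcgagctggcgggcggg
Plk2 (chr13:110394932-110395039, plus strand): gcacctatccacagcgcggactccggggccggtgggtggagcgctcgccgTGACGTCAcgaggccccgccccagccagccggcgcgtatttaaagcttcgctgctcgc
Ppm1d (chr11:85311119-85311226, plus strand): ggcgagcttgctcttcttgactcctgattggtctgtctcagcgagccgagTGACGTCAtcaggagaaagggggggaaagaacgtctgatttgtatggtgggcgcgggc
The match ends 158, 54 and 77 bases before the start. Of these 3 genes, Btg2 and Plk2 fell and Ppm1d did not pass. Of 17 tested immediate early genes, 10 were lower and 5 higher (median log2 fold change -0.25). This class responds to signals within minutes and is listed here without Btg2 and Plk2. The shares were 58.8% lower and 29.4% higher, beside 16.1% and 16.8% of all genes tested. Of genes with a mean of at least 10 CPM, 38.5% were called in either direction. Most of the listed genes lay far above that level, and the share called among genes as abundant as these was not counted. Klf6 fell 1.55-fold, Fos 1.24-fold and Klf2 1.43-fold (edgeR adjusted p at most 9.45e-08). The largest rise in that list, named after its values were seen, was 2.02-fold in the nuclear receptor gene Nr4a1, from 1370 ± 166 to 2700 ± 297 CPM (adjusted p = 0.00738 in edgeR). Jund and Junb, AP-1 subunit genes, also rose, 1.23-fold and 1.13-fold.

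Psrc1, Ckap2 and Gtse1 differed in direction. Psrc1, which encodes a spindle protein, rose 1.25-fold from 20.9 ± 1.07 to 25.5 ± 1.26 CPM (330, 311 and 297 against 376, 361 and 339 counts, edgeR adjusted p = 0.00933). Ckap2, which encodes a microtubule-associated protein of the spindle, rose 1.14-fold from 37.6 ± 0.254 to 42.1 ± 1.01 CPM (adjusted p = 0.0132 in edgeR, and 0.107 with DESeq2). Gtse1, whose product binds p53 and microtubules in G2, fell 1.15-fold from 44.3 ± 1.37 to 37.7 ± 1.90 CPM (edgeR adjusted p = 0.0263). The groups did not overlap for any of the 3. The call of Gtse1 was lost with DESeq2 (adjusted p = 0.139), with the replicate number as a block (edgeR adjusted p = 0.0633) and without any 1 of 4 libraries, wild-type replicates 2 and 3 and Mc5r-null replicates 2 and 3 (edgeR adjusted p between 0.0608 and 0.0796). Zmat3, which encodes an RNA-binding p53 effector, was scarce, with 55, 48 and 47 counts in wild type and 84, 77 and 58 in Mc5r-null. It rose 1.59-fold (edgeR adjusted p = 0.0167), but did not pass with DESeq2 (adjusted p = 0.0632) or without any 1 of wild-type replicates 2 and 3 and Mc5r-null replicates 1 and 2 (edgeR adjusted p between 0.0512 and 0.0569). Ptprv, a receptor-type tyrosine phosphatase gene, was at 9.20 ± 0.680 and 10.6 ± 0.626 CPM (edgeR adjusted p = 0.0919).

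Of the members with roles in apoptosis, Tnfrsf10b alone passed in the reported fit. It encodes the mouse receptor for the death ligand TRAIL (ENSMUSG00000022074, chromosome 14, positions 69767472 to 69784411, plus strand) and had 64, 75 and 77 counts in wild type and 105, 107 and 106 in Mc5r-null. Tnfrsf10b rose 1.60-fold from 4.82 ± 0.476 to 7.55 ± 0.0700 CPM (log2 fold change 0.68 ± 0.112 SE, edgeR adjusted p = 0.00220). Fas, the other classical death receptor among p53 targets, had 28, 46 and 24 counts against 21, 21 and 27, with wild-type replicate 2 above the rest (edgeR adjusted p = 0.341). Phlda3, which encodes an inhibitor of AKT, had 34, 33 and 34 counts against 57, 37 and 42. The groups of Phlda3 did not overlap, Mc5r-null replicate 1 was the highest, and the edgeR adjusted p was 0.0605, or 0.0381 without Mc5r-null replicate 2. Perp, a membrane effector of p53-dependent apoptosis, had 42, 48 and 41 counts against 38, 49 and 27 (edgeR adjusted p = 0.821). Ei24, which encodes an endoplasmic reticulum protein, was at 62.9 ± 2.58 and 65.3 ± 1.70 CPM (edgeR adjusted p = 0.169).

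Eda2r, an X-linked receptor gene of the TNF receptor family, was close to undetected and not tested. It had 0 counts in the 3 wild-type libraries and 4, 4 and 0 in Mc5r-null. The Mc5r-null total of 8 counts (exact 95% interval 3.45 to 15.8) is 0.190 CPM (0.0820 to 0.374). A count of 0 over the wild-type group allows up to 3 counts, or 0.0670 CPM, so the lower bound of the one lies close to the limit of the other. Both the interval and the limit take in counting error alone, as PCR copies of a molecule are not independent, and Mc5r-null replicate 3 was itself at 0.

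Cdkn1a and Aen were the 2 tested members that spread by at least 2-fold within a genotype (6.45%, where 8.07% of all genes tested did so). Such a spread was rarer among genes as abundant as these, 3.75% of genes at 10 to 30 CPM, 2.53% at 30 to 100 CPM and 1.54% of genes above 100 CPM. Aen encodes a nuclease that p53 induces in apoptosis (ENSMUSG00000030609, chromosome 7, positions 78895854 to 78911209, plus strand). Its counts were 678, 721 and 205 in wild type and 245, 685 and 704 in Mc5r-null. One library of each genotype, wild-type replicate 3 and Mc5r-null replicate 1, was low, and the other 4 lay close together. The ratio of the highest to the lowest CPM was 3.51 in wild type and 2.89 in Mc5r-null. The ratio for Cdkn1a was 2.54 in Mc5r-null and 1.09 in wild type, and its low libraries, Mc5r-null replicates 1 and 2, were not those of Aen except for replicate 1. The means of Aen, 35.8 ± 19.1 and 38.8 ± 18.5 CPM (edgeR adjusted p = 0.895), thus describe none of its libraries. The cause of these spreads was not tested.

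Other p53 targets, 32 genes outside the members, held 3 more tested genes with such a spread. Pmaip1, which encodes the pro-apoptotic protein Noxa, had 386, 901 and 425 counts in wild type and 398, 137 and 152 in Mc5r-null, so wild-type replicate 2 was high and Mc5r-null replicate 1 reached the level of wild-type replicates 1 and 3 (edgeR adjusted p = 0.227). Trp53i11, a p53-inducible gene, had 317, 369 and 343 counts against 1029, 415 and 1016, with Mc5r-null replicate 2 near wild type (edgeR adjusted p = 0.0670). It passed without that library and with DESeq2 (adjusted p down to 2.85e-06). The third, Trim7, a ubiquitin ligase gene, had 25, 15 and 30 counts against 39, 40 and 36 and rose 1.78-fold (edgeR adjusted p = 0.0290), which did not hold in 7 of 14 alternatives (adjusted p up to 0.113). No library was the outlying one for all of these genes.

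**Figure D4:**
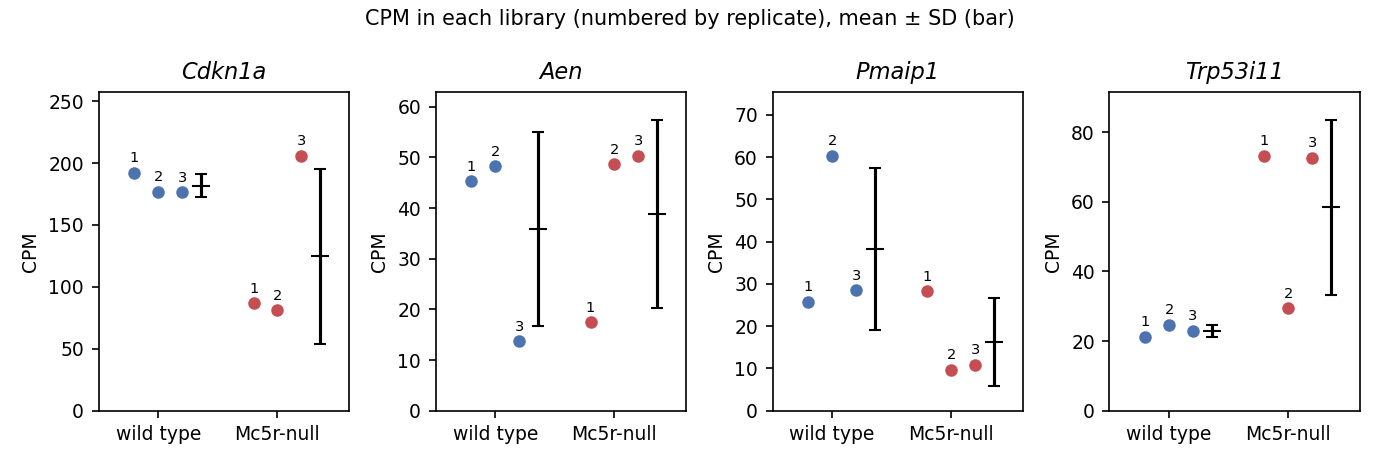
CPM of 2 members (Cdkn1a, Aen) and 2 other p53 targets (Pmaip1, Trp53i11) that spread by at least 2-fold within a genotype, in each library (points, numbered by replicate), with the mean and SD (bar, n = 3); each axis starts at 0. The outlying library differs from gene to gene, Mc5r-null replicate 3 for Cdkn1a and wild-type replicate 2 for Pmaip1.

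Spreads of 1.5-fold to 2-fold were found in 4 further members, Polk, Perp, Fas and Phlda3. For Perp the exact 95% counting intervals of the extreme Mc5r-null libraries overlapped (36.3 to 64.8 counts around 49 and 17.8 to 39.3 around 27), as did those of Phlda3 (43.2 to 73.9 around 57 and 26.1 to 51.0 around 37) and those of Fas in wild type (33.7 to 61.4 around 46 and 15.4 to 35.7 around 24). For Polk in Mc5r-null they did not (94.9 to 138 around 115 and 50.2 to 82.8 around 65).

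The members of metabolism, redox control and secreted stress signals held 3 higher and 1 lower of 6. Gdf15, a secreted stress cytokine of the TGF-beta family (ENSMUSG00000038508, chromosome 8, positions 70629393 to 70632456, minus strand), had 395, 406 and 353 counts in wild type and 545, 532 and 480 in Mc5r-null. All Mc5r-null libraries were above all wild-type libraries. Gdf15 rose 1.47-fold from 25.8 ± 1.84 to 37.0 ± 2.34 CPM (log2 fold change 0.55 ± 0.075 SE, edgeR adjusted p = 0.000796). Sesn1, a sestrin gene whose product restrains mTORC1, had 678, 676 and 681 counts against 722, 709 and 748. It rose 1.17-fold from 45.4 ± 0.223 to 51.7 ± 1.60 CPM (adjusted p = 0.00519 in edgeR). Sesn2, the second sestrin, had 148, 185 and 149 counts against 175, 184 and 168 and did not pass (edgeR adjusted p = 0.114, and 0.0338 without wild-type replicate 2).

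Fdxr, which encodes the mitochondrial ferredoxin reductase, rose 1.13-fold from 37.9 ± 1.18 to 42.1 ± 2.59 CPM at the edge of the threshold (edgeR adjusted p = 0.0475). It was the 1 called member whose groups overlapped, and the call was lost in 10 of 14 alternatives, with adjusted p up to 0.185. Dcxr, a carbonyl reductase gene, was at 9.60 ± 0.823 and 11.4 ± 0.894 CPM (edgeR adjusted p = 0.0684). Rps27l, a p53-induced paralogue of a ribosomal protein of the small subunit (ENSMUSG00000036781, chromosome 9, positions 66946086 to 66949516, plus strand), went the other way, with 979, 912 and 1000 counts in wild type and 706, 764 and 750 in Mc5r-null. It fell 1.20-fold from 64.6 ± 3.11 to 52.7 ± 2.17 CPM (edgeR adjusted p = 0.00580). How the authors counted reads shared with its paralogue Rps27 is not known here.

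Of the 3 members of DNA repair and nucleotide supply, 1 rose. Ddb2, which recognizes ultraviolet damage for nucleotide excision repair (ENSMUSG00000002109, chromosome 2, positions 91211572 to 91236982, minus strand), had 222, 243 and 220 counts in wild type and 264, 283 and 283 in Mc5r-null. Ddb2 rose 1.32-fold from 15.3 ± 0.851 to 19.7 ± 0.804 CPM (adjusted p = 0.00443 in edgeR). Its end overlaps Acp2, a lysosomal phosphatase gene on the opposite strand (426, 368 and 348 counts against 345, 310 and 379), and whether the counting used strand is not known here, so the split of reads is uncertain. Polk, the translesion polymerase kappa gene, had 113, 93 and 102 counts against 115, 65 and 95 (edgeR adjusted p = 0.898). Rrm2b, the p53-inducible ribonucleotide reductase subunit gene, was at 12.7 ± 0.466 and 11.2 ± 0.972 CPM without overlap of the groups (edgeR adjusted p = 0.271). Gm3362, a gene model inside Rrm2b on the same strand, held 937 to 1021 counts per library, more than Rrm2b itself (142 to 194), so the split of reads between them is uncertain.

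Levels per gene length placed Btg2 far above the other members, at 181 ± 2.37 FPKM in wild type and 131 ± 2.32 FPKM in Mc5r-null. Rps27l (34.0 ± 1.63 and 27.7 ± 1.14 FPKM), Trp53 (26.6 ± 0.403 and 29.2 ± 1.61) and Cdkn1a (27.5 ± 1.36 and 18.9 ± 10.7) followed. Trp53 and Cdkn1a did not differ beyond their spread in wild type, and in Mc5r-null Rps27l and Trp53 did not. Trp53inp1 moved up the order, from 7.39 ± 0.240 FPKM in wild type, near Mdm2 (7.01 ± 0.198), to 14.01 ± 0.0772 FPKM in Mc5r-null, near Plk3 (14.2 ± 0.886). Mdm4 was at 5.52 ± 0.375 and 5.81 ± 0.103 FPKM. The scarcest tested members were Zmat3 (0.176 ± 0.0151 and 0.274 ± 0.0497 FPKM) and Fas (0.738 ± 0.265 and 0.553 ± 0.0853 FPKM).

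Among p53 targets outside the members more genes were lower than higher. Of the 30 tested, 10 were lower and 4 higher (median log2 fold change -0.11), beside 16.1% lower and 16.8% higher of all genes tested. Gadd45a, a gene of growth arrest after DNA damage, fell 1.59-fold from 63.7 ± 1.27 to 39.0 ± 2.54 CPM (946, 935 and 970 against 589, 522 and 533 counts, edgeR adjusted p = 4.32e-05). Tob1, an antiproliferative relative of Btg2, fell 1.40-fold (edgeR adjusted p = 6.27e-05), and Dram1, a lysosomal regulator of autophagy, fell 1.51-fold (edgeR adjusted p = 0.000383). Foxo3, a transcription factor gene of stem cell quiescence, rose 1.52-fold from 97.3 ± 2.40 to 145 ± 4.91 CPM (adjusted p = 5.64e-06 in edgeR).

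Genes that act on p53 were called about as often as genes in general. Of 19 tested activators and cofactors, 4 were higher (21.1%) and 2 lower (10.5%), beside 16.8% and 16.1% of all genes tested (median log2 fold change -0.0065). Ppp1r13b, which encodes the p53-binding protein ASPP1, rose 1.47-fold from 56.1 ± 0.931 to 80.3 ± 0.404 CPM (adjusted p = 9.65e-06 in edgeR). The acetyltransferase gene Crebbp rose 1.16-fold and the kinase gene Hipk1 1.18-fold, while Rpl5, a ribosomal protein gene whose product can bind Mdm2, fell 1.20-fold (edgeR adjusted p at most 0.00293). Rpl5 has near-identical pseudogene copies, and how shared reads were counted is not known here. Of 15 tested inhibitors and ubiquitin ligases, 2 were higher and 2 lower (13.3% each; median log2 fold change 0.073). Huwe1, a ubiquitin ligase gene, rose 1.12-fold (edgeR adjusted p = 0.000578). Trim28 rose 1.05-fold, and Sirt1, a deacetylase gene, and Kmt5a, a histone and p53 methyltransferase gene, fell 1.28-fold and 1.09-fold. These last 3 calls were lost in at least 3 alternatives each, with adjusted p up to 0.252, 0.0815 and 0.233.

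Downstream of p21, the DREAM repressor complex silences cell cycle genes. Of 22 such genes, all tested, 11 were lower and none higher (median log2 fold change -0.17). Of all genes tested, 16.1% were lower and 16.8% higher. Among genes with a mean of at least 10 CPM, 38.5% were called in either direction. Cdkn1a itself was not called, and whether p21 or DREAM had a part in these falls was not tested. Rrm2, the S phase ribonucleotide reductase subunit gene, fell 1.43-fold from 224 ± 1.35 to 154 ± 2.02 CPM (edgeR adjusted p = 7.97e-07). The helicase gene Mcm5 fell 1.13-fold, the phosphatase gene Cdc25a 1.21-fold and the transcription factor gene Mybl2 1.20-fold (edgeR adjusted p at most 0.00144). Among the other CDK inhibitor genes, Cdkn1c, which encodes p57, rose 1.68-fold from 3.26 ± 0.488 to 5.37 ± 0.681 CPM (adjusted p = 0.00732 in edgeR). Cdkn3, listed here by its name though it encodes a phosphatase, fell 1.35-fold (edgeR adjusted p = 0.00388). Cdkn2c fell 1.17-fold (edgeR adjusted p = 0.0416, and 0.151 at most in the alternatives). Cdkn1b, which encodes p27, had 870, 892 and 886 counts in wild type and 730, 1077 and 1081 in Mc5r-null (edgeR adjusted p = 0.322). Its low Mc5r-null library, replicate 1, decides the call, and without it the edgeR adjusted p was 0.000327. Cdkn2d did not pass (edgeR adjusted p = 0.398), and Cdkn2b had at most 1 count in a library.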

How the data were processed

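Poly-A RNA of LSK cells was sequenced as stranded paired-end libraries, 3 per genotype, per the labels' protocols. The submitters' processing notes name CASAVA 1.8, HISAT2, StringTie, edgeR and GRCm38 without roles; counter and strand setting: not given in the sources used here. The authors deposited counts per gene, which are raw whole numbers, and FPKM values, scaled by gene length and library total. All 32 member loci had the coordinates of GENCODE mouse release M21.

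For the tests, edgeR 4.0.16 ran under R 4.3.3 on genes passing filterByExpr (minimum count 10, minimum total 15), with TMM scaling and a robust quasi-likelihood fit over all genes. The SE of a log2 fold change is its size divided by the square root of F. Adjusted p-values under 0.05 were called. No test was made over the member list. The members and lists were chosen with earlier results of these data known. The naming rule took all members, up to 4 genes with the smallest p from each other pathway list, all CDK inhibitors and LSK markers (a marker is not reported here), and Mc5r; other names (Pmaip1, Trp53i11, Trim7, sex-linked genes) were added with their values known. The alternatives took RLE or upper-quartile scaling, DESeq2 1.42.0, limma-voom (limma 3.58.1), 2 other filters on low counts, the replicate block, leaving out immunoglobulin genes and each library in turn. The fit was tested on simulated data. Replicates differed by more than counting noise (median chi-square per gene 0.670 to 0.717, where counting alone gives 0.455). Promoter windows are from RefSeq (GRCm38.p6) and matched 25 of 32 members by symbol. Motifs were searched on both strands: the p53 decamer, pairs of it as the p53 response element, and TGACGTCA. A CHR element (TTTGAA) was found in 5 of the 25 members, in 5 of 36 windows, beside 17.9% of all windows.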

Additional observations from a re-analysis of the deposited data

How the results depend on the processing

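Of the 15 members called, 9 were called in all 14 alternatives, and 10 of the 16 members not called kept their direction and were not called in any of them. The matching counts over all genes tested were not made. With DESeq2 the calls fell to 1655 higher and 1446 lower over all genes, and to 6 higher and 3 lower among the members. Leaving out 1 library at a time gave 8 to 9 higher and 3 to 5 lower members, with 3 lower without wild-type replicate 3, and 2080 to 2124 higher and 1986 to 2094 lower genes. With the replicate number as a block, 9 members were higher and 4 lower, Gtse1 and Fdxr losing their calls. Same-numbered libraries of the genotypes did not deviate together (correlations of 0.0030, -0.033 and -0.026 across genes). Differently numbered libraries gave correlations between -0.015 and 0.041. This check can show only a strong shared deviation, and what the numbers stand for is not known here. The direction turned, never past the threshold, for Aen (log2 fold change -0.24 when wild-type replicate 3 was left out, -0.05 and -0.08 when Mc5r-null replicates 2 and 3 were, up to 0.50 without Mc5r-null replicate 1), Perp (0.12 without Mc5r-null replicate 3, down to -0.30 without replicate 2) and Polk (0.03 and 0.15 without wild-type replicate 1 and Mc5r-null replicate 2). Members with a spread of at least 1.5-fold within a genotype numbered 6, against 2 at 2-fold. No scaling moved the median of all genes by more than 0.1. The causes of these shifts were not tested. Members under about 50 counts (Fas, Perp, Phlda3, Eda2r) are limited by depth.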

Other observations

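Of 11 tested subunit genes of the DREAM complex itself, 1 was higher (9.09%) and 2 lower (18.2%) in Mc5r-null cells, beside 16.8% and 16.1% of all genes tested (median log2 fold change -0.071). Rbbp4, a histone-binding subunit gene, fell 1.13-fold from 420 ± 5.03 to 363 ± 8.54 CPM (SD, n = 3 each; edgeR adjusted p = 0.000728). Of the pocket protein genes, Rbl1 fell 1.09-fold (edgeR adjusted p = 0.0153) and Rbl2 rose 1.09-fold (edgeR adjusted p = 0.0450). Neither call held with DESeq2 or when wild-type replicate 3 was left out. Rbl1 kept its call in 12 of 14 alternatives and Rbl2 in only 4. E2f4 was at 115 ± 1.95 and 107 ± 1.52 CPM (edgeR adjusted p = 0.102). Tfdp2, which encodes an E2F partner, is a further pathway gene with a 2-fold spread in both genotypes, with 634, 198 and 201 counts in wild type and 302, 212 and 451 in Mc5r-null; it was chosen after its values were seen.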
